A study of Mus musculus with 12 samples.

Results

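The zinc handling genes followed here in embryonic mouse pancreas lacking β-catenin were 10 in number: the zinc exporters Slc30a1, Slc30a2, Slc30a4, Slc30a5, Slc30a6, Slc30a7 and Slc30a9, the metal importer Slc39a14, and the metallothioneins Mt1 and Mt2. They were selected on measured values of these same arrays, with the KO against wildtype contrasts of both days and the difference between the days in view, so every value of the 10 genes below is a description without a test. All probe sets (groups of probes that report on 1 transcript) whose only annotated gene symbol is one of the 10 were taken, which gave 16 probe sets of 45037 and 10 genes of 18193.

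Each of 12 embryos gave 1 whole pancreas, read on its own Affymetrix MOE430 2.0 array: 4 KO and 2 wildtype pancreata at E14.5, and 4 KO and 2 wildtype pancreata at E16.5. KO embryos were Pdx1Cre/+; β-catenin flox/flox, with Cre driven by Pdx1 in the pancreatic epithelium. Mesenchyme, vessels, nerves and blood cells of the gland do not derive from that epithelium, and the RNA of all cells of a gland was read together. Wildtype embryos came from the same intercross of Pdx1Cre/+; β-catenin flox/+ mice, and the labels do not say which single alleles they carried. The deposited description writes E14.6 for the earlier day where the array names have 14.5. The deposited values are multiples of the day's wildtype average. The wildtype mean is therefore 1, and the 2 wildtype values of a probe set mirror each other around it. Abundance, and any course over time, are absent from such values. For that reason the presence of the defining markers of pancreas could not be checked. Over all probe sets KO_540G stood apart: the interquartile range of its log2 ratios was 0.414, against 0.199 to 0.278 in the other 3 E14.5 KO pancreata, and its median was 0.09. In whole glands, fewer cells of a type and less RNA per cell cannot be told apart.

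Zinc is a cofactor of many enzymes and transcription factors, and cells keep its free level low. SLC30 proteins move zinc out of the cytosol, either across the plasma membrane or into vesicles and organelles, SLC39 proteins move it into the cytosol, and metallothioneins are small cysteine-rich proteins that bind it there. The adult pancreas is rich in zinc: acinar cells load it into zymogen granules and secrete it, β cells store it with insulin, and zinc-binding digestive enzymes such as the carboxypeptidases take theirs up in the secretory pathway. The metal sensor Mtf1 binds metal response elements in promoters of Mt1, Mt2 and Slc30a1 and raises their transcription when zinc is high.

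At E16.5 the KO pancreata had 0.323 to 0.543 of the wildtype mean of both metallothioneins. They had 0.652 of Slc30a5, and 0.7003 and 0.720 of Slc30a7 by its 2 probe sets. Slc39a14 was at 0.492 by its lowest probe set and at 0.757, 0.883 and 1.185 by the others. Slc30a2 was at 0.803, whereas Slc30a1, Slc30a4, Slc30a6 and Slc30a9 lay within 0.918 to 1.21 of the wildtype mean. At E14.5 Mt1 and Mt2 averaged 0.946 to 1.16 and Slc30a7 1.475 by 1 of its 2 probe sets. Over the 16 probe sets the median log2 fold change of KO over wildtype was −0.10 on E14.5 and −0.35 on E16.5, and the median difference between the days was −0.30, beside 0.02, 0.03 and 0.01 over all 45037 probe sets. The limma fits, at a Benjamini-Hochberg adjusted p under 0.05, called 0 of the 16 at E14.5, where they called 0.00222% of all probe sets higher and 0.00888% lower. An unadjusted p under 0.05 was found for 1 of the 16 at E14.5 (6.86% of all probe sets), 9 at E16.5 (16.6%) and 5 for the difference (10.4%). At E16.5 they called 3 of the 16, all lower in KO (Mt1, Slc39a14 and Slc30a7, 1 probe set each), where 0.802% of all probe sets were called higher and 1.82% lower. For the difference between the days they called 1 of the 16, Slc30a7, with 0.0755% of all probe sets called higher and 0.273% lower. Because these contrasts chose the genes, nothing is read from those counts. Among the fits that left out 1 KO array, the E16.5 call of Slc30a7 was lost without KO_540C, KO_615A, KO_615B, KO_541J, KO_541L or KO_591C. Those of Mt1 and Slc39a14 were kept in the fits that left out a KO array. The Slc30a7 call was also lost with log2 of the ratio plus 0.1 and without _x_at and _s_at probe sets. The count of 3 at E16.5 was 0 without WT_622A and 6 without KO_591D, and the count of 1 was 0 without KO_615B, WT_522B, WT_522C, KO_541J or WT_628G and 2 without KO_591D.

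Complete separation of the 4 KO from the 2 wildtype pancreata was counted as well. At E14.5 all 4 KO lay below both wildtype pancreata on 2 of the 16 probe sets and above on 1, and 8.06% and 8.17% of all probe sets did so. At E16.5 all 4 KO lay below both wildtype pancreata on 8 of the 16 and above on 1, beside 11.1% and 14.5% of all probe sets. The plot of fold changes by probe set shows how the members spread on each day.

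**Figure D1:**
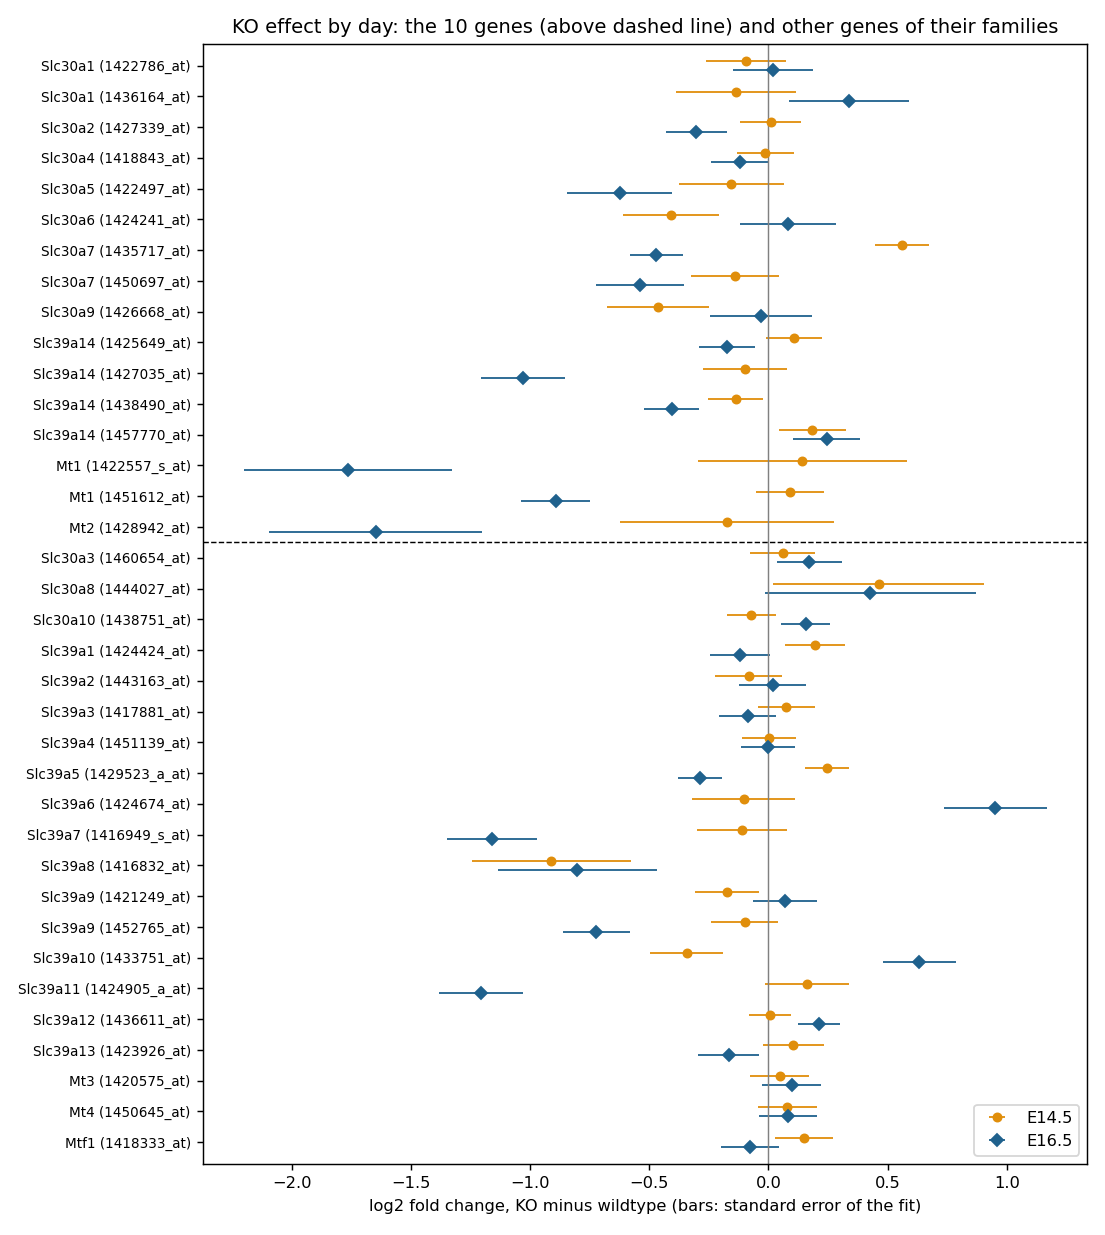
Log2 fold change of KO over wildtype (horizontal axis, with standard errors from the fit) for the 16 probe sets (above the dashed line) and the other genes of their families at E14.5 and E16.5. Both Mt1 probe sets, Mt2 and 1 Slc39a14 probe set lie farthest to the left among the 16 at E16.5, between −0.89 and −1.76, and 1 Slc30a7 probe set lies on opposite sides of 0 on the 2 days.

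The metallothioneins carry the largest KO effects among the 10 genes. Mt1 and Mt2 sit beside each other on chromosome 8 (GRCm38.p6), Mt2 at chr8:94172618-94173567 and Mt1 at chr8:94178883-94180327, with 5315 bp between them. Their promoters are shown, with that of the exporter Slc30a1, because these are the textbook targets of Mtf1 among the 10 genes and because Mt1 and Mt2 were low at E16.5 while Slc30a1 was not. The sequences are RefSeq's for GRCm38.p6, from 250 bases before to 50 bases after a transcript start, and capitals mark metal response element cores, TGCACNC or TGCGCNC on either strand. The starts used for Mt1 and Slc30a1 lie inside the annotated spans of these genes, so stretches of both windows do too.
Mt1, chr8:94178839-94179138, + strand: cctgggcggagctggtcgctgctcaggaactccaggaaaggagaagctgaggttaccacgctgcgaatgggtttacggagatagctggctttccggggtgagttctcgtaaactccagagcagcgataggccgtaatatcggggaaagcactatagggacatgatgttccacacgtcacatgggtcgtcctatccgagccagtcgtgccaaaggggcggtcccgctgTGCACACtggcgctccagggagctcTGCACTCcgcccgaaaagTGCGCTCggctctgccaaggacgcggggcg
Mt2, chr8:94172368-94172667, + strand: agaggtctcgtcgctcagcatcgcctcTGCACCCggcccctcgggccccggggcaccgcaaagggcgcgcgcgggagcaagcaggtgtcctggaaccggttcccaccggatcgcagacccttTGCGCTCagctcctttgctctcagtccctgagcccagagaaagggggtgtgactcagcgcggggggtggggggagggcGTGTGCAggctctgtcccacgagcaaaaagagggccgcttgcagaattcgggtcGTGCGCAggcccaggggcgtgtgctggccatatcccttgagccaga
Slc30a1, chr1:191906531-191906830, + strand: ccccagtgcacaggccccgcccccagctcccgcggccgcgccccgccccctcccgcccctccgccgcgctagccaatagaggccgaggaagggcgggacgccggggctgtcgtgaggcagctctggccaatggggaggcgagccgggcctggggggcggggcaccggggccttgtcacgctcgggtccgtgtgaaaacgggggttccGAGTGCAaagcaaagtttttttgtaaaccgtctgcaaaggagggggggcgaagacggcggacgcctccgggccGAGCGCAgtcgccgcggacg
Mt1 held 3 cores in this window, Mt2 held 4 and Slc30a1 held 2. All cores of Mt1 and Slc30a1 lie inside the annotated spans of these genes. Those of Mt2, except the last, lie before its annotated start. Of 32851 mouse promoters of the same length, 25.7% held at least 1 core, 1.97% at least 3 and 0.517% at least 4. A promoter was found in the RefSeq table for 9 of the 10 genes, and 6 of these 9 held a core: beside the 3 above, Slc30a2 held 2, Slc30a4 held 3 and Slc30a5 held 1. The windows of Slc30a6, Slc30a7 and Slc30a9 held none of these letters. The core bound by Tcf factors, the DNA-binding partners of β-catenin, was searched as CTTTGAT or CTTTGAA on either strand, and was found in the window of Slc30a6 only, once, and in 8.65% of all promoters. A match is a stretch of letters and not a binding site.

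On the Mt1 probe set 1451612_at the E14.5 KO pancreata read 0.981 (KO_540C), 1.20 (KO_540G), 1.16 (KO_615A) and 0.942 (KO_615B), against 0.991 and 1.01 in the wildtype pancreata. The groups overlapped at that day, with 2 KO above and 2 KO below both wildtype pancreata. At E16.5 the KO pancreata read 0.478 (KO_541J), 0.483 (KO_541L), 0.552 (KO_591C) and 0.661 (KO_591D), against 1.02 (WT_622A) and 0.981 (WT_628G) in wildtype. All 4 KO lay far below both wildtype pancreata, with a mean of 0.543 ± 0.0856 (SD, n = 4) and a log2 fold change of −0.89 ± 0.14 (SE). The E14.5 log2 fold change was 0.09 ± 0.14, and the difference between the days was −0.98 ± 0.20.

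The second Mt1 probe set, 1422557_s_at, spread more widely. Its E14.5 KO values were 0.9995 (KO_540C), 0.729 (KO_540G), 1.71 (KO_615A) and 1.19 (KO_615B), against 1.05 and 0.948 in wildtype. KO_615A and KO_615B lay above both wildtype pancreata, KO_540G below and KO_540C between them. Its E16.5 KO values were 0.259 (KO_541J), 0.140 (KO_541L), 0.375 (KO_591C) and 0.518 (KO_591D), against 0.8290 (WT_622A) and 1.17 (WT_628G) in wildtype. Every KO pancreas was lower than both wildtype pancreata, with KO_541L at the bottom, and the log2 fold change of −1.76 ± 0.44 was the lowest of the 16 probe sets. The E14.5 value was 0.14 ± 0.44 and the difference between the days −1.91 ± 0.62. The ending _s_at marks a probe set whose probes can match more than 1 transcript, and whether Mt2 adds to it was not tested.

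Mt2, read by 1428942_at, put the KO pancreata of E16.5 in the same order as that Mt1 probe set. At E14.5 its KO values were 0.860 (KO_540C), 0.580 (KO_540G), 1.54 (KO_615A) and 0.8004 (KO_615B), against 1.04 and 0.958 in wildtype. KO_615A stood above both wildtype pancreata and the other 3 KO below them. At E16.5 its KO values were 0.272 (KO_541J), 0.155 (KO_541L), 0.442 (KO_591C) and 0.546 (KO_591D), against 1.097 (WT_622A) and 0.903 (WT_628G) in wildtype. All 4 KO were below both wildtype pancreata, with a mean of 0.354 ± 0.174 (SD, n = 4). At E14.5 the log2 fold change was −0.17 ± 0.45, and at E16.5 it was −1.65 ± 0.45, with a difference of −1.48 ± 0.63 between the days. KO_541L was the lowest KO on this probe set and on 1422557_s_at at E16.5, and KO_591D the highest. Without KO_591D the E16.5 log2 fold change of Mt2 was −1.91, and without KO_541L it was −1.30.

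**Figure D2:**
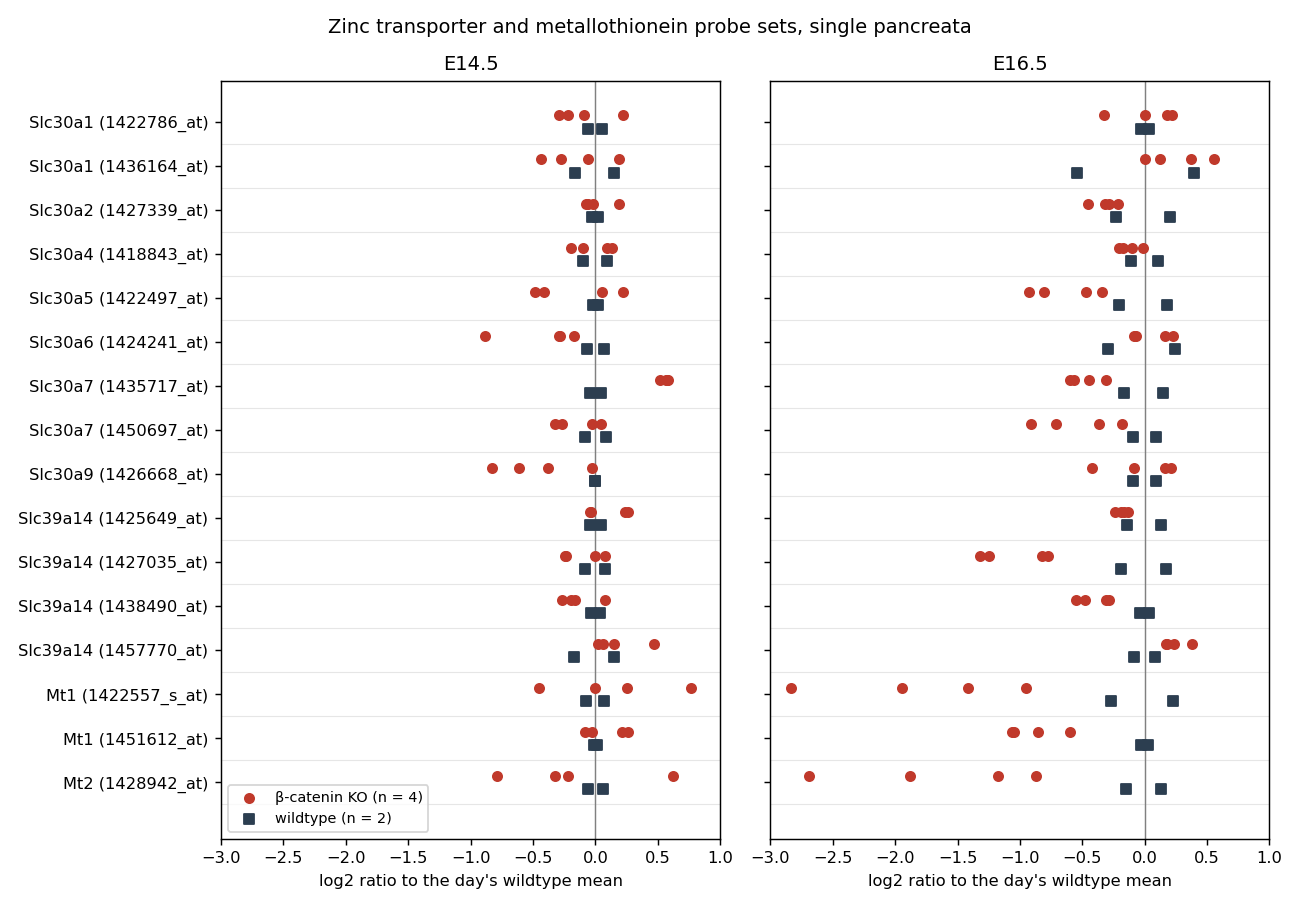
Log2 ratio to the wildtype mean of the day (horizontal axis) for each of the 16 probe sets in each of the 12 pancreata, with circles for KO above squares for wildtype, E14.5 left and E16.5 right. The KO points of Mt1 and Mt2 at E16.5, at ratios of 0.140 to 0.661, lie below every wildtype point of the same day, and the KO points at E14.5 lie on both sides of the wildtype points.

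Slc39a14, on chromosome 14, carries zinc, iron and manganese into cells and is read by 4 probe sets, which gave unlike values. On 1427035_at the E14.5 KO pancreata read 0.996 (KO_540C), 0.846 (KO_540G), 1.05 (KO_615A) and 0.849 (KO_615B), against 0.944 and 1.06 in wildtype. On the same probe set the E16.5 KO pancreata read 0.421 (KO_541J), 0.399 (KO_541L), 0.583 (KO_591C) and 0.566 (KO_591D), against 1.13 (WT_622A) and 0.875 (WT_628G) in wildtype. The groups overlapped at E14.5, and at E16.5 all 4 KO were below both wildtype pancreata, with a mean of 0.492 ± 0.0954 (SD, n = 4). At E16.5 the log2 fold change was −1.03 ± 0.18, after −0.10 ± 0.18 at E14.5. A second probe set, 1438490_at, averaged 0.757 ± 0.0672 in E16.5 KO, again with all 4 KO lower, and another, 1425649_at, averaged 0.883 ± 0.0275 with overlap and a log2 fold change of −0.17, or −0.31 without WT_622A and −0.04 without WT_628G. The fourth, 1457770_at, went the other way, at 1.185 ± 0.0818 in E16.5 KO with all 4 KO above both wildtype pancreata. The 4 probe sets spanned 1.28 in log2 fold change at E16.5, and which part of the transcript each reads was not established, so the level of the gene as a whole is uncertain.

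Slc30a7 encodes an exporter of the Golgi apparatus and early secretory pathway that hands zinc to secreted enzymes. It was chosen because its direction turned between the days, which was seen on 1 of its 2 probe sets. On 1435717_at the E14.5 KO pancreata read 1.498 (KO_540C), 1.48 (KO_540G), 1.43 (KO_615A) and 1.49 (KO_615B), against 1.03 and 0.971 in wildtype. On the same probe set the E16.5 KO pancreata read 0.661 (KO_541J), 0.676 (KO_541L), 0.734 (KO_591C) and 0.807 (KO_591D), against 0.890 (WT_622A) and 1.11 (WT_628G) in wildtype. The 4 E14.5 KO pancreata were all above and the 4 E16.5 KO pancreata all below the wildtype pancreata of their day. The mean was 1.475 ± 0.0293 in E14.5 KO and 0.720 ± 0.0662 in E16.5 KO (SD, n = 4 each), with log2 fold changes of 0.56 ± 0.11 and −0.47 ± 0.11 and a difference of −1.03 ± 0.16. The E16.5 log2 fold change was −0.31 without WT_628G and −0.63 without WT_622A.

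The other Slc30a7 probe set, 1450697_at, did not show the turn. Its E14.5 KO values were 0.831 (KO_540C), 0.801 (KO_540G), 1.03 (KO_615A) and 0.980 (KO_615B), against 1.06 and 0.942 in wildtype. Its E16.5 KO values were 0.612 (KO_541J), 0.532 (KO_541L), 0.774 (KO_591C) and 0.883 (KO_591D), against 0.936 (WT_622A) and 1.06 (WT_628G) in wildtype. At E14.5 the groups overlapped and 2 of the KO pancreata were below both wildtype pancreata, and at E16.5 all 4 KO were below them. Its log2 fold change was −0.14 ± 0.19 on the earlier day and −0.54 ± 0.19 on the later one, so both probe sets were lower in KO at E16.5 and differed by 0.70 in log2 fold change at E14.5.

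**Figure D3:**
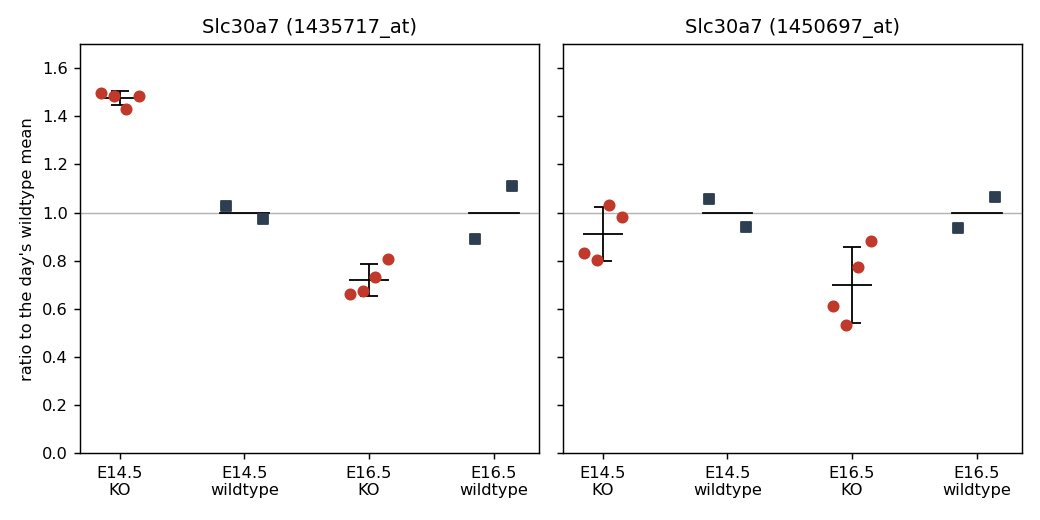
Ratio of both Slc30a7 probe sets to the wildtype mean of the day in each pancreas, with KO left of wildtype on each day, black lines at the group means and bars of 1 SD for KO. On 1435717_at the KO points sit at 1.43 to 1.498 at E14.5 and 0.661 to 0.807 at E16.5, and on 1450697_at they sit at 0.801 to 1.03 at E14.5 and 0.532 to 0.883 at E16.5.

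Slc30a5 and Slc30a6 form a heterodimer that loads zinc into the early secretory pathway, and the KO values of these partners were low on different days. Slc30a5, read by 1422497_at, was at 0.525 (KO_541J), 0.573 (KO_541L), 0.789 (KO_591C) and 0.720 (KO_591D) in E16.5 KO, against 0.865 (WT_622A) and 1.14 (WT_628G) in wildtype. All 4 KO were below both wildtype pancreata there, at a mean of 0.652 ± 0.124 and a log2 fold change of −0.62 ± 0.22. At E14.5 it was at 1.04 (KO_540C), 0.715 (KO_540G), 1.17 (KO_615A) and 0.750 (KO_615B) in KO, against 1.02 and 0.985 in wildtype, with 2 KO above and 2 below both wildtype pancreata. Slc30a6, read by 1424241_at, was lower in KO on the earlier day instead. At E14.5 it was at 0.887 (KO_540C), 0.541 (KO_540G), 0.816 (KO_615A) and 0.821 (KO_615B) in KO, against 1.05 and 0.953 in wildtype. All 4 KO were below both wildtype pancreata, with KO_540G well apart from the other 3, and the log2 fold change of −0.41 ± 0.20 was −0.25 without KO_540G. At E16.5 Slc30a6 averaged 1.05 ± 0.117 in KO, between 0.941 and 1.17, inside the wildtype values of 0.817 and 1.18. The log2 fold change of 0.08 ± 0.20 was −0.18 without WT_622A and 0.35 without WT_628G. The difference between the days was −0.47 ± 0.31 for Slc30a5 and 0.49 ± 0.28 for Slc30a6, and limma called neither.

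Slc30a9, read by 1426668_at and known as a zinc exporter of mitochondria, resembled Slc30a6. Its E14.5 KO values were 0.981 (KO_540C), 0.562 (KO_540G), 0.768 (KO_615A) and 0.655 (KO_615B), against 0.9999 and 1.0 in wildtype. All 4 KO were below both wildtype pancreata, KO_540C only just, and the log2 fold change was −0.46 ± 0.21, or −0.34 without KO_540G. At E16.5 the KO values ran from 0.747 to 1.16 around wildtype values of 0.937 and 1.06, and the log2 fold change was −0.03 ± 0.21. KO_540G was the lowest of the 4 E14.5 KO pancreata on 10 of the 16 probe sets, and the median log2 ratio of the 16 in it was −0.27. The part of that array's wide spread over all probe sets in these low values was not tested.

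Slc30a1, the plasma membrane exporter that protects cells from excess zinc, overlapped between the groups on both probe sets and both days. On 1422786_at the E16.5 KO values were 1.14 (KO_541J), 1.17 (KO_541L), 1.002 (KO_591C) and 0.797 (KO_591D), against 0.977 (WT_622A) and 1.02 (WT_628G) in wildtype, with a log2 fold change of 0.02 ± 0.17. On 1436164_at the E16.5 KO values were 1.003 (KO_541J), 1.47 (KO_541L), 1.29 (KO_591C) and 1.09 (KO_591D), against 0.685 (WT_622A) and 1.32 (WT_628G) in wildtype, with a log2 fold change of 0.34 ± 0.25. The 2 wildtype pancreata of E16.5 stood widely apart on that probe set, and the log2 fold change was −0.13 without WT_622A and 0.81 without WT_628G, so its direction rests on 1 wildtype array. KO_541L, the pancreas with the lowest Mt1 and Mt2 on the probe sets 1422557_s_at and 1428942_at, had the highest Slc30a1 on both probe sets. At E14.5 Slc30a1 averaged 0.945 ± 0.156 and 0.918 ± 0.175 in KO, with log2 fold changes of −0.09 ± 0.17 and −0.14 ± 0.25.

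Slc30a2 moves zinc into secretory vesicles and, in rodents, into pancreatic zymogen granules. On 1427339_at its E16.5 KO values were 0.802 (KO_541J), 0.729 (KO_541L), 0.819 (KO_591C) and 0.864 (KO_591D), against 0.852 (WT_622A) and 1.15 (WT_628G) in wildtype. The other KO pancreata were below both wildtype pancreata while KO_591D lay just above WT_622A, with a mean of 0.803 ± 0.0565 and a log2 fold change of −0.30 ± 0.13. That fold change was −0.09 without WT_628G and −0.52 without WT_622A. At E14.5 it averaged 1.01 ± 0.0870 in KO, with a log2 fold change of 0.01 ± 0.13. Slc30a4, whose loss causes zinc-poor milk in lethal milk mice, had the narrowest range of ratios of the 16 probe sets on its single one, 1418843_at. Its KO values ran from 0.873 to 1.09 at E14.5, against 0.932 and 1.07 in wildtype, and from 0.866 to 0.990 at E16.5, against 0.926 and 1.07 in wildtype. The groups overlapped on both days, with log2 fold changes of −0.01 ± 0.12 and −0.12 ± 0.12, the second being −0.23 without WT_622A and −0.01 without WT_628G.

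The E16.5 KO pancreata were not alike. KO_541L was the lowest of the 4 on 7 of the 16 probe sets and KO_591D the highest on 7. The acinar markers, of which 18 of 21 were measured, differed between the same glands: 17 of the 18 had all 4 KO below both wildtype pancreata at E16.5 and 11 were called lower in KO by limma. Their median log2 ratio was −2.89 in KO_541J, −3.46 in KO_541L, −1.91 in KO_591C and −1.28 in KO_591D, against −0.18 in WT_622A and 0.16 in WT_628G. At E14.5 it was between −0.44 and 0.48 in KO pancreata, against −0.03 and 0.03 in wildtype, with 0 of the 18 called by limma and 1 at an unadjusted p under 0.05. At E16.5, 8 of the 16 probe sets (both of Mt1, Mt2, Slc39a14 on 1427035_at and 1438490_at, Slc30a5 and both of Slc30a7) also had all 4 KO below both wildtype pancreata. The metallothionein probe sets and both of Slc30a7 were least reduced in KO_591D, the gland least reduced in acinar markers. Slc30a5 and Slc39a14 on 1427035_at and 1438490_at were least reduced in KO_591C (0.789, 0.583 and 0.821). Slc39a14 on 1438490_at was lowest in KO_591D (0.684). The part of acinar tissue in these values was not tested. Median log2 fold changes at E16.5 were −0.55 for duct markers (2 of 10 called lower), 0.37 for mesenchyme (2 of 10 called higher), 0.36 for leukocytes (1 of 8 called higher), 0.42 for neurons and glia (1 of 7 called higher), 0.25 for endothelium (0 of 6 called by limma, 2 at an unadjusted p under 0.05) and 0.25 for endocrine cells (0 of 15 called by limma, 4 at an unadjusted p under 0.05). At E14.5, where Slc30a7 was high on 1435717_at, the endocrine markers had a median of 0.50, with 7 of 15 above both wildtype pancreata in all 4 KO, 0 called by limma and 6 at an unadjusted p under 0.05. Mesenchyme markers had a median of 0.27 on that day, with 10 of 10 above 0, 0 called and 1 at an unadjusted p under 0.05. The part of these cell types in the values of the 10 genes was not tested either. The 3 Ctnnb1 probe sets averaged 0.906, 1.21 and 0.841 in E14.5 KO and 0.961, 0.678 and 0.760 in E16.5 KO, with none called at either day. Whether those probes lie within the deleted part of the gene is not known here, so they do not check the genotype labels.

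**Figure D4:**
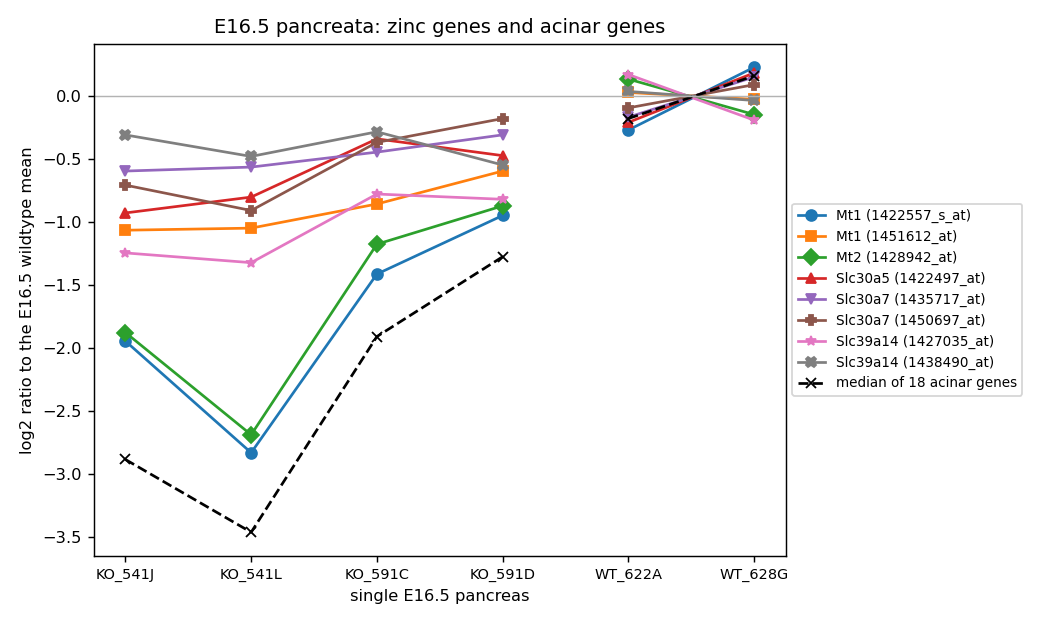
Log2 ratio to the E16.5 wildtype mean in each of the 4 KO and 2 wildtype pancreata, for the 8 probe sets with all 4 KO below both wildtype pancreata and for the median of the 18 acinar markers (dashed), with lines only to guide the eye. KO_541L holds the lowest points of Mt2 and of Mt1 on 1422557_s_at, at ratios of 0.155 and 0.140, and KO_591D the highest KO points of both, at 0.546 and 0.518.

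Genes whose pattern over all 12 pancreata came nearest were found by the root mean square difference of log2 ratios, as a description. Nearest to Mt1 on 1422557_s_at were Gabra4 (0.194), Tspan1 (0.213), Mt2 (0.273), Pecr (0.287) and Klf15 (0.313). The median over all probe sets with a single gene symbol was 1.17. Mt2 thus ranked 3 among all genes for that probe set. The other Mt1 probe set, 1451612_at, was nearest to AU040320 (0.0841), Serpinf2 (0.0980), Large2 (0.104), Coq8a (0.112) and Pkd2l2 (0.116), with a median of 0.575 over the same probe sets. Slc30a7 on 1435717_at was nearest to Hagh (0.124), Sec24d (0.136), Alcam (0.146), AY036118 (0.161) and Bnip3 (0.163), with a median of 0.484 over the same probe sets. These 5 genes averaged 1.28 to 1.49 in E14.5 KO and 0.657 to 0.799 in E16.5 KO, and Sec24d encodes a coat protein of vesicles that leave the endoplasmic reticulum.

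The rest of the zinc families, 19 genes with 33 probe sets, was read from lists that hold every other SLC30, SLC39 and metallothionein gene on the array and Mtf1. With 1 probe set per gene, taken by name, limma called 0 of the 19 at E14.5. At E16.5 it called 1 higher and 2 lower in KO (0.802% and 1.82% of all probe sets). In the contrast of both days it called 1 lower (0.273%). A limma unadjusted p under 0.05 was found for 3 at E14.5 (6.86% of all probe sets), 7 at E16.5 (16.6%) and 5 for the difference (10.4%). At E16.5 all 4 KO lay below both wildtype pancreata for 4 of the 19 and above for 5 (11.1% and 14.5% of all probe sets). The median of their log2 fold changes was 0.05 on the earlier day, 0.02 on the later one and 0.00 for the difference, close to those of all probe sets given above.

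Slc39a11, an importer of the same family as Slc39a14, fell at E16.5. Its values were 0.360 (KO_541J), 0.357 (KO_541L), 0.536 (KO_591C) and 0.513 (KO_591D) in KO, against 0.972 (WT_622A) and 1.03 (WT_628G) in wildtype, and all 4 KO were below both wildtype pancreata. The log2 fold change was −1.21 ± 0.18 (limma adjusted p = 0.0062), and the call held with any 1 of the 12 arrays left out (adjusted p 0.00343 to 0.0402). At E14.5 it averaged 1.12 ± 0.103 in KO. The difference between the days, −1.37 ± 0.25, passed with all arrays (limma adjusted p = 0.0477) and did not pass in 10 of the 12 fits that left out 1 array (adjusted p 0.0276 to 0.302 over the 12, KO_591C and KO_591D being the arrays whose loss kept it).

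Slc39a7, which releases zinc from the endoplasmic reticulum and Golgi apparatus into the cytosol, fell at E16.5 as well. It was at 0.359 (KO_541J), 0.413 (KO_541L), 0.515 (KO_591C) and 0.5 (KO_591D) in KO, against 1.15 (WT_622A) and 0.846 (WT_628G) in wildtype, and the groups did not overlap. The log2 fold change was −1.16 ± 0.19 (limma adjusted p = 0.0107), and without WT_622A it was −0.94 (adjusted p = 0.0907, with 0.00689 to 0.0907 over the 12 arrays left out in turn). Slc39a9, an importer of the Golgi apparatus, fell on 1452765_at, to 0.605 ± 0.0676 in KO with all 4 KO below both wildtype pancreata (limma adjusted p = 0.0240). That call was lost without WT_622A, KO_541J or KO_541L (adjusted p = 0.176, 0.0674 and 0.0644), and the 2 other Slc39a9 probe sets averaged 1.05 and 1.09 with overlap. The E16.5 calls of Slc39a11, Slc39a7 and Slc39a9 were also lost with quantile normalization, with each day fitted on its own arrays, with a trended and robust variance and with the methods' t-test.

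Slc39a6 and Slc39a10, importers of the plasma membrane that act together, stood on the other side. Slc39a6 on 1424674_at was at 1.95 (KO_541J), 2.54 (KO_541L), 2.04 (KO_591C) and 1.37 (KO_591D) in E16.5 KO, against 0.914 (WT_622A) and 1.09 (WT_628G) in wildtype. It rose by a log2 fold change of 0.95 ± 0.22 (limma adjusted p = 0.0440), a call lost in 10 of the 12 fits with 1 array left out (adjusted p 0.00628 to 0.231, kept only without KO_540G or KO_591D), and, among the other settings, under median centring, under quantile normalization, with each day fitted alone, with a trended and robust variance and by the methods' t-test. Its 3 other probe sets averaged 0.988 to 1.24 and none passed. Slc39a10 on 1433751_at averaged 0.794 ± 0.110 in E14.5 KO with all 4 KO below both wildtype pancreata, and 1.56 ± 0.240 in E16.5 KO with all 4 above. Neither day passed (limma adjusted p = 0.717 and 0.0531), nor did the difference of 0.98 ± 0.22 (limma adjusted p = 0.104). Its other probe set, 1439041_at, averaged 0.705 ± 0.270 in E14.5 KO with overlap, KO_540C reading 1.04. In E16.5 KO it averaged 1.45 ± 0.269 with all 4 above, and it passed in no contrast either.

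Slc39a8, Slc39a5 and the islet transporter Slc30a8 had sizeable means without passing. Slc39a8 on 1416832_at averaged 0.556 ± 0.189 in E14.5 KO and 0.595 ± 0.203 in E16.5 KO, with all 4 KO below both wildtype pancreata on each day (limma adjusted p = 0.641 and 0.247), while its other probe set averaged 1.02 and 1.07. Slc39a5, which clears zinc from the blood at the basolateral face of acinar and gut cells, averaged 1.19 ± 0.0643 in E14.5 KO and 0.821 ± 0.0495 in E16.5 KO, with all 4 KO beyond both wildtype pancreata in opposite directions (limma adjusted p = 0.135 for the difference). Slc30a8, the transporter that fills insulin granules with zinc, was at 0.918 (KO_541J), 2.02 (KO_541L), 2.01 (KO_591C) and 0.694 (KO_591D) in E16.5 KO, against 0.667 (WT_622A) and 1.33 (WT_628G) in wildtype. The groups overlapped there and at E14.5, and neither day passed (limma adjusted p = 0.725 and 0.926).

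Mt3 and Mt4, metallothioneins known chiefly from brain and from stratified epithelia, averaged 1.08 ± 0.136 and 1.06 ± 0.139 in E16.5 KO and overlapped with wildtype on both days. Mtf1, the sensor that switches Mt1 and Mt2 on, had 5 probe sets averaging 0.892 to 1.22 in E16.5 KO and 0.914 to 1.12 in E14.5 KO, with none called by limma. Other metal and stress genes were counted from lists. Of 11 copper and iron genes measured out of 12, only Slc31a1, the plasma membrane copper importer, passed at E16.5, at 0.628 ± 0.0367 in KO (limma adjusted p = 0.0460), a call lost in 9 of the 12 fits with 1 array left out (adjusted p 0.00469 to 0.189, kept without KO_540C, KO_540G or KO_591D) and under median centring, quantile normalization, each day on its own arrays, a trended and robust variance and the methods' t-test. Of 10 antioxidant genes measured out of 11 and 7 glucocorticoid-responsive genes, both groups being known to share inducers with metallothioneins, limma called 0 at E16.5, with 4 and 2 at an unadjusted p under 0.05. Over all probe sets 16.6% had such an unadjusted p at E16.5 in limma. The median log2 fold changes at E16.5 were −0.11 for copper and iron genes, 0.05 for antioxidant genes and 0.10 for glucocorticoid-responsive genes. Single genes ran from −0.67 to 0.21, from −1.22 to 0.39 and from −0.31 to 0.72 in these lists.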

How the data were processed

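RNA of each pancreas was amplified in 2 rounds and hybridised to an Affymetrix MOE430 2.0 array. The authors summarised the arrays with RMA in GeneSpring, and the deposited values are ratios, each RMA signal over the day's wildtype average. The 2 wildtype ratios of a day sum to 2 within 3e-07, and the lowest and highest ratio are 0.01 and 26.4. A filter on dim probe sets could therefore not be made. The number of arrays, 2 wildtype and 4 KO a day, limits the precision.

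Of 45101 probe sets, 64 controls were left out. Of the remaining 45037, 34945 carry 1 gene symbol, 932 several and 9160 none in the platform annotation. For all 45037, a model of 4 group means was fitted to the log2 ratios in R 4.3.3 (limma 3.58.1; 8 degrees of freedom), and p values were adjusted by the Benjamini-Hochberg method over all of them, with 0.05 as the limit. The same script was first tested on simulated data. The 10 genes, the gene lists and the marker lists were chosen with earlier results of these data known, and no p value is given for the 10 genes. Named beside them were the other zinc family genes that passed, Slc30a8, list genes that passed, and the 5 nearest genes to 3 probe sets: that with the largest effect at E16.5, that of Slc30a7 with the largest difference between the days and that of Mt1 first by name. Slc39a5, Slc39a8, Slc39a10, Mt3, Mt4 and Mtf1 were named after their values were seen. Where a gene has several probe sets, names ending in _at came first, then the lowest number.

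The alternatives were log2 of the ratio plus 0.1, median centring, quantile normalization, array weights, a random block for arrays that share a number in their names (statmod 1.5.0), each day on its own arrays, a trended and robust variance, the methods' t-test, probe sets without _x_at and _s_at, averaging the probe sets of a gene, and leaving out each array. The methods' t-test was run per day without the authors' filter on ratios and adjusted over all 45037 probe sets. Motifs were searched in RefSeq promoters with Python 3.11.15, and figures drawn with matplotlib 3.10.9.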

Additional observations from a re-analysis of the deposited data

Results flagged for a closer look

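Slc30a6 stood out at E14.5 because the gap between KO_540G, at a ratio of 0.541, and the nearest of the other 3 KO pancreata took 0.83 of the group's range in log2 ratios, just above the critical share of 0.829. On the ratios themselves the share was 0.793, below it. Of 32 groups of 4 KO pancreata looked at in log2 ratios, this was 1, and chance flags about 1 in 20 groups.

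The KO effect of Slc30a7 on 1435717_at differed between the days by −1.03 on the log2 scale in the limma fit, a contrast that was used to choose the gene. The KO effect of Slc39a11 differed between the days by −1.37 on the log2 scale (limma adjusted p = 0.0477). In Slc39a5 all 4 KO pancreata lay above both wildtype pancreata at E14.5 and below them at E16.5, a difference of −0.53 on the log2 scale that did not pass in limma (adjusted p = 0.135). In Slc39a10 on 1433751_at all 4 KO pancreata lay below both wildtype pancreata at E14.5 and above them at E16.5. That difference of 0.98 did not pass in limma (adjusted p = 0.104). On its other probe set, 1439041_at, the groups overlapped at E14.5.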

How the results depend on the processing

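No paired analysis was possible because the labels give no replicate numbers that groups share. No number in the array names is held by both KO and wildtype arrays, so genotype and that number cannot be told apart. Both wildtype arrays of the earlier day carry the same number, and the KO arrays of each day come in pairs that share a number. The labels do not say what the numbers stand for, so whether arrays that share a number are independent is not known. The 2 wildtype arrays of a day, the ratio to their own mean and the missing abundance limit every value. Of 973 log2 values of the 16 member probe sets under alternatives, 946 moved by less than 1 SD of the KO pancreata, 27 moved by more and 0 of the called ones changed sign, 9 of the 27 without WT_622A and 9 without WT_628G. The causes were not tested. Many of the 973 could not move, because several alternatives change only the error estimate or the adjustment. These were the random block, the trended and robust variance, each day on its own arrays, the methods' t-test and the removal of _x_at and _s_at probe sets. Leaving out an array of 1 day also keeps the fold change of the other day. The 946 is therefore not a measure of stability.

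Over all probe sets, 5 calls at E14.5, 1182 calls at E16.5 and 157 in the contrast of both days became 30, 2380 and 580 with array weights and 9, 71 and 6 with quantile normalization. With a trended and robust variance they became 0, 86 and 14. They were 14 and 159 with each day on its own arrays, and 0 and 0 with the methods' t-test. That t-test was run here on each day's log2 ratios and adjusted over all 45037 probe sets. The authors applied theirs only to probe sets that had first passed filters on the ratios, so these counts are not those of their procedure. The E14.5 count was 11 with the number in the array name as a random block and 3 with median centring. Leaving out 1 array gave 1 to 19 calls at E14.5, 404 to 2862 at E16.5 and 8 to 408 for the contrast.

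Of the 16 member probe sets, 0 were called at E14.5 under every alternative run. The 3 called at E16.5 became 5 with array weights, 0 with each day on its own arrays, 0 with quantile normalization, 0 with the methods' t-test, 0 with a trended and robust variance, and 0 to 6 with 1 array left out. The 1 called for the difference became 2 with array weights, 0 with quantile normalization and 0 to 2 with 1 array left out. Of the 19 other family genes, the 3 called at E16.5 became 0 with each day on its own arrays, with quantile normalization, with the methods' t-test and with a trended and robust variance, and 1 to 4 with 1 array left out. The 1 called for the difference became 4 with array weights, 0 with quantile normalization, with a trended and robust variance and without _x_at and _s_at probe sets, and 0 to 3 with 1 array left out.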
